A study of Mus musculus with 6 samples.

Results

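The transcripts described here belong to 10 mouse genes that hold and move zinc: the metallothioneins Mt1, Mt2 and Mt3, the metal-sensing transcription factor Mtf1, the zinc exporters Slc30a1, Slc30a5 and Slc30a7, and the zinc importers Slc39a1, Slc39a10 and Slc39a14. They were chosen by symbol: every non-control probe whose transcript accession mapped to one of these genes was taken, which gave 14 of the 56605 probes on the array, and the 10 genes stand among 13557 named genes that could be tested. Mtf1 had 3 probes, Slc30a5 and Slc39a10 had 2 each, and the other genes had 1.

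The cells were TM4, a male mouse testicular somatic line that is much used as a model of the Sertoli cell. Of 6 samples, 3 were left untreated (0 µM) and 3 were exposed to 10 µM 4-nitrophenol (PNP), a phenol of diesel exhaust and a breakdown product of some organophosphate insecticides. Both groups were read after 24 h, and the total RNA of every sample was labelled and read on an array of its own, in a single colour. All samples come from 1 established line, and the labels do not state whether the replicates of a group were separate cultures, so the p-values below cover only the scatter of these samples, part or all of which may be technical.

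Metallothioneins are small cysteine-rich proteins that bind zinc and other metals in the cytosol. When free zinc rises, the zinc finger factor MTF1 binds metal response elements in promoters, and the genes it switches on include Mt1, Mt2 and Slc30a1. Transporters of the Slc30 family carry zinc out of the cytosol, to the outside or into organelles, and those of the Slc39 family carry it in. The testis needs zinc for sperm formation, and metallothionein induction is a widely used read-out of metal and stress exposure.

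The arrays were similar to each other. Between 48.0% and 57.9% of the 56605 probes were well above background on an array, no spot was saturated, and the correlation across the tested probes ran from 0.9694 to 0.9853 within the untreated group, from 0.9748 to 0.9805 within the PNP group and from 0.9657 to 0.9825 between the groups. Slide 1 held untreated replicates 1 and 2, slide 2 held untreated replicate 3 and PNP replicate 1, and slide 3 held PNP replicates 2 and 3, with 2 array positions on each slide. Arrays at the same position were thus all on different slides. Differences between groups and between slides cannot be told apart except within slide 2, where the groups differ in position. Of 14 Sertoli cell markers 11 were measured, while Amh, Cldn11 and Fshr were well above background on none of the 6 arrays. None of the 5 Leydig cell markers on the array and none of the 3 endothelial ones could be tested, nor could Adgre1 and Ptprc of the macrophage markers or Ddx4, Dazl, Prm1 and Stra8 of the 5 germ cell markers. The 4 peritubular myoid markers, Cd68, Csf1r and the germ cell marker Sycp3 were measured. Among all marker lists Sox9 alone had an unadjusted p under 0.05 (limma, log2 fold change -0.80, adjusted p = 0.342), while its other tested probe had -0.03, and the part of cell identity in the results below was not tested.

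Promoter windows of the members were searched for the short sequence that MTF1 reads. A core of the metal response element was searched as TGCACNC and TGCGCNC on both strands, in windows from 250 bases before to 50 bases after the annotated start, and the cores found in members did not overlap. The windows come from RefSeq on the build GRCm38.p6, which held windows for 9 of the 10 members. At least 1 core was found in windows of 5 members. Of these, 4 are printed in the direction of transcription with the cores in capitals, because Mt1, Mt2 and Slc30a1 are the textbook targets of MTF1 and Mt3 is the metallothionein that differed most between the groups.
Mt1, chr8:94178839-94179138, plus strand: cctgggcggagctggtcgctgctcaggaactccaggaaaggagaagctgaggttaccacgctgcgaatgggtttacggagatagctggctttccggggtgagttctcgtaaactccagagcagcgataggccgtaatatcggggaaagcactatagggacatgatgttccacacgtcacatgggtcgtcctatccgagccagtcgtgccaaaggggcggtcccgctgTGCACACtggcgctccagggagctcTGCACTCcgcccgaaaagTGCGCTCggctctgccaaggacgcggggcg
Mt2, chr8:94172368-94172667, plus strand: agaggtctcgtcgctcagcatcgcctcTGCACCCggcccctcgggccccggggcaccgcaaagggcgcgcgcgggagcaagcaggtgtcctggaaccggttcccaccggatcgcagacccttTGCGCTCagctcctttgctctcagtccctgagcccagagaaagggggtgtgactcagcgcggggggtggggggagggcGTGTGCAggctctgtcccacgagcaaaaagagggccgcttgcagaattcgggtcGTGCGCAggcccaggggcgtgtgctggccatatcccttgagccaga
Mt3, chr8:94152357-94152656, plus strand: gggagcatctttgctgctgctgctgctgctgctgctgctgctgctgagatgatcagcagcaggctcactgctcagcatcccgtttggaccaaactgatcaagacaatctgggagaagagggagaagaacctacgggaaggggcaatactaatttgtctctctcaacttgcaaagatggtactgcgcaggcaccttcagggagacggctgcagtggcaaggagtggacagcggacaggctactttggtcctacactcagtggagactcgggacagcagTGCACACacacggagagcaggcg
Slc30a1, chr1:191906531-191906830, plus strand: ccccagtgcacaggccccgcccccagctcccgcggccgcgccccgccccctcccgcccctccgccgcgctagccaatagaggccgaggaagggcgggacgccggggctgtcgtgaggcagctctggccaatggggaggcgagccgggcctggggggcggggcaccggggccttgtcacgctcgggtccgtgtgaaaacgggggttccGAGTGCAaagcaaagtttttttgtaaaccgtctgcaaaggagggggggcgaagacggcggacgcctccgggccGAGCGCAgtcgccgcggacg
The Mt2 window held 4 cores, the Mt1 window 3, the Slc30a1 window 2 and the Mt3 window 1. Counted from the annotated start, those of Mt2 began at -223, -128, -50 and 4 and those of Mt1 at -23, 2 and 20. Those of Slc30a1 began at -43 and 30 and that of Mt3 at 27. Each of these windows thus held a core after the annotated start, and that of Mt3 was its only one. Across 32851 windows of the same length, 25.7% held at least 1 core, 7.1% at least 2, 2.0% at least 3 and 0.5% at least 4. The Slc30a5 window held 1 core, and these letters were not found in the windows of Mtf1, Slc30a7, Slc39a1 and Slc39a10. A match is a description of letters, not a shown binding site.

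The comparison asked whether 24 h of PNP shifted the transcripts of zinc handling. No member passed: 0 of the 14 probes had an adjusted p under 0.05, with 0% of all 28370 tested probes called (limma, Benjamini-Hochberg over all probes). Mt1 and Mt2, the classic metal-induced metallothioneins, differed by less than their standard errors, with log2 fold changes of -0.02 ± 0.24 and 0.00 ± 0.31 (SE, n = 3 per group). Mt3 had the lowest value of the members, -1.25 ± 0.38, and Slc30a1 the highest, 0.84 ± 0.26. Those were the only members at an unadjusted p under 0.05 in limma, 1 higher and 1 lower of 14, where 6.58% of all probes were higher and 2.74% lower at that p. They were also the only members whose groups did not overlap, 1 in each direction, against 7.42% of all probes higher and 7.56% lower. The median over the 14 probes was 0.03, beside -0.043 over all tested probes, and 10 of the 14 differed by less than 1 standard error. The smallest adjusted p was 0.366 among the members and 0.131 among all probes (limma). In RNA from whole samples, fewer cells expressing a gene and less RNA per cell cannot be told apart. The number of arrays limits the precision: standard errors of the member probes ran from 0.20 to 0.40 on the log2 scale.

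**Figure D1:**
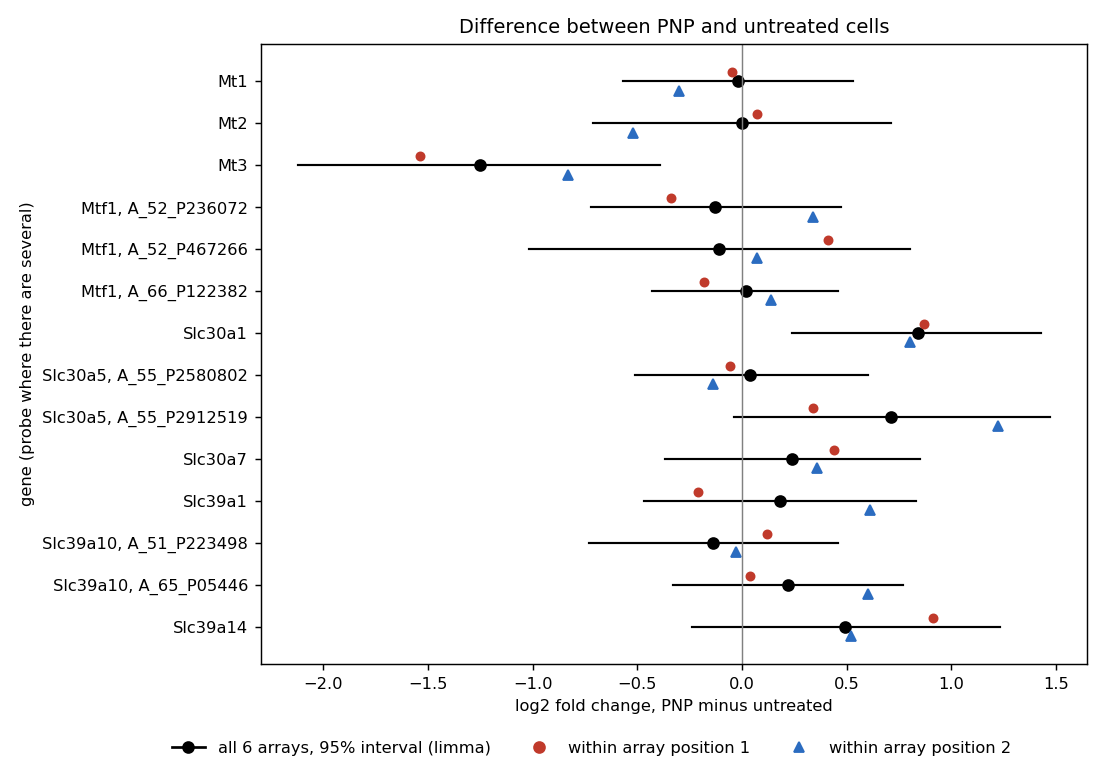
Log2 fold change of each member probe, PNP minus untreated, with the limma 95% interval over all 6 arrays (black), and the difference within array position 1 (red circles, 2 untreated arrays and 1 PNP array) and within array position 2 (blue triangles, 1 untreated array and 2 PNP arrays). Mt3, from -2.12 to -0.39, and Slc30a1, from 0.24 to 1.43, have the intervals that leave out 0, before any adjustment for the number of probes. Arrays at the same position were all on different slides.

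A level is given below as log2 of an array's processed signal minus the 75th percentile of that array, so that 0 is the 75th percentile. Levels of different probes are not comparable. All 14 probes were well above background on all 6 arrays, so no member entered through 1 group alone.

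Mt1 encodes one of the main inducible metallothioneins of the body. Its level was 5.56, 6.05 and 5.37 in untreated replicates 1, 2 and 3 and 5.79, 5.42 and 5.72 in PNP replicates 1, 2 and 3. The untreated samples spanned the PNP samples, and the group means were 5.66 ± 0.35 and 5.64 ± 0.20 (SD, n = 3). The log2 fold change had a 95% interval from -0.57 to 0.53 (limma, adjusted p = 0.99), which is a ratio of PNP over untreated between 0.675 and 1.45. A change of Mt1 beyond those bounds lay outside the interval, and a smaller one could not be seen with 3 arrays a group.

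Mt2 is the partner of Mt1 and lies next to it on the chromosome. Its level was 4.92, 5.80 and 4.72 in the untreated replicates and 5.46, 4.89 and 5.09 in the PNP replicates. Here too the untreated samples held both the highest and the lowest value. The means were 5.15 ± 0.57 and 5.15 ± 0.29 (SD, n = 3), and the interval of the log2 fold change ran from -0.71 to 0.71 (limma, adjusted p = 0.999).

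Mt1 and Mt2 put the 6 samples in the same order. Over the 6 arrays their levels had a Pearson correlation of 0.965 and a Spearman correlation of 1.00, as a description of samples that share slides, positions and scaling, and 209 of the tested probes correlated more highly with Mt1 than Mt2 did. The order followed the array position: untreated replicate 2, PNP replicate 1 and PNP replicate 3, the 3 arrays at position 2, were the highest for both genes. Within slide 1, whose arrays were both untreated, position 2 was above position 1 by 0.50 for Mt1 and 0.88 for Mt2, and within slide 3, both PNP, by 0.30 and 0.20. Compared within position 1, PNP minus untreated was -0.05 for Mt1 and 0.07 for Mt2, and within position 2 it was -0.30 and -0.52. Within slide 2 it was 0.41 and 0.74, but there the PNP array was at position 2 and the untreated array at position 1.

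**Figure D2:**
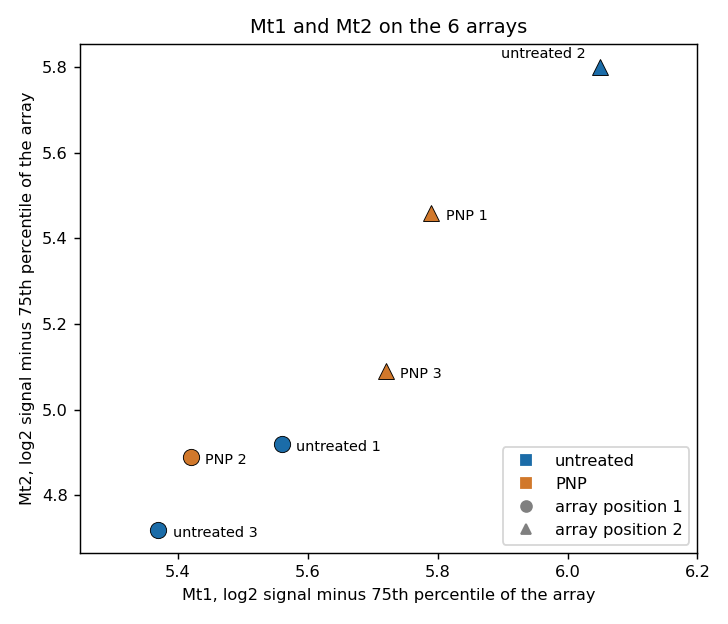
Level of Mt2 against level of Mt1 on each array (log2 signal minus the 75th percentile of the array), with untreated samples in blue, PNP samples in orange, array position 1 as circles and position 2 as triangles. The 3 triangles lie above and to the right of the 3 circles, while blue and orange are mixed.

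Array position separated other members as well. Of the 14 probes, 3 were higher at position 2 without overlap (Mt1, Mt2 and the brighter Slc30a5 probe), where 12.2% of all tested probes were, and 2 were lower (a probe of Mtf1 and the brighter probe of Slc39a10), where 10.7% were. More member probes were thus separate by position, 5, than by treatment, 2. All tested probes had the same order, with 7.42% higher and 7.56% lower by treatment, so it is not particular to the members. The split by position was examined after results of these data were known, and its cause was not tested.

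Mt3 is the growth inhibitory metallothionein, best known from the brain, where it binds zinc in neurons. Its level was 0.63, -0.09 and 0.32 in the untreated replicates and -0.17, -1.07 and -1.67 in the PNP replicates. All 3 PNP samples lay below all 3 untreated samples, although PNP replicate 1 was only slightly below untreated replicate 2. The means were 0.29 ± 0.36 and -0.97 ± 0.75 (SD, n = 3), a signal 2.39-fold lower with PNP, with an interval of the log2 fold change from -2.12 to -0.39 (limma, unadjusted p = 0.00958, adjusted p = 0.366). Mt3 was lower with PNP by -1.54 within array position 1 and by -0.83 within position 2, comparisons in which group and slide cannot be told apart.

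The size of the Mt3 difference depended on which arrays were set against each other. Within slide 2, the slide that held both groups, it was -0.49, and there the untreated array was at position 1, where Mt3 was the higher: position 2 minus position 1 was -0.72 within slide 1 and -0.60 within slide 3. Without PNP replicate 1 the log2 fold change was -1.65 (limma, adjusted p = 0.14) and without PNP replicate 3 it was -0.91 (limma, adjusted p = 0.654). The groups did not overlap, so settings that only left out, weighted or blocked arrays could not change the sign. Over the 24 alternative settings and the reported one the value stayed below 0 in all 25. It passed within array position 1, with a lone PNP array there (limma, -1.54, adjusted p = 0.0137), and in no other setting.

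Mt4, the metallothionein of stratified epithelium, was well above background on 1 of 6 arrays and was not tested. The 3 tested members of the metallothionein family thus held 1 at an unadjusted p under 0.05 (limma, Mt3, lower), where 2.74% of all probes were lower at that p.

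Mtf1 encodes the zinc finger factor that senses zinc and drives metallothionein genes. Its brightest probe, A_66_P122382, read 0.82, 0.76 and 0.77 in the untreated replicates and 0.81, 0.62 and 0.99 in the PNP replicates. These are the steadiest values of any member, with an SD of 0.03 in the untreated group, and the groups overlapped. The log2 fold change was 0.02, with an interval from -0.43 to 0.46 (limma, adjusted p = 0.987). The dimmer probes gave -0.13 ± 0.26 for A_52_P236072 and -0.11 ± 0.40 for A_52_P467266 (SE, limma, adjusted p = 0.898 and 0.947). The last of these split by array position, reading 0.06, -0.20 and 0.34 at position 1 (untreated replicates 1 and 3 and PNP replicate 2) and -0.95, -1.04 and -0.73 at position 2 (untreated replicate 2 and PNP replicates 1 and 3). Across the 6 arrays the probes of Mtf1 had correlations with each other from -0.525 to 0.474, so they did not follow a common course.

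Slc30a1 encodes ZnT1, the zinc exporter of the plasma membrane and a target of MTF1. Its level was -3.24, -2.77 and -2.39 in the untreated replicates and -2.17, -1.94 and -1.76 in the PNP replicates. Every PNP sample was above every untreated sample, with untreated replicate 3 the nearest. The means were -2.80 ± 0.43 and -1.96 ± 0.21 (SD, n = 3), a 1.79-fold higher signal, with an interval of the log2 fold change from 0.24 to 1.43 (limma, unadjusted p = 0.0114, adjusted p = 0.376). The difference was 0.87 within array position 1 and 0.80 within position 2. Arrays at the same position were all on different slides, so group and slide cannot be told apart in these values.

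The Slc30a1 signal was low, and its difference was smaller within slide 2 and under normexp with its offset. The processed signal, before scaling, was 32.8, 40.1 and 89.7 units in the untreated replicates and 97.0, 119 and 113 units in the PNP replicates. On the same arrays the dimmest probe that was still well above background had 12.9, 14.5 and 33.0 units and 25.4, 15.8 and 16.4 units. Untreated replicate 3, on slide 2, was 0.62 above the mean of the untreated replicates on slide 1 on the log2 scale, and within slide 2 PNP minus untreated was 0.21. Normexp background correction started from the median spot and background signals, not from the processed signal. It models the local background in place of the scanner's own subtraction, and here it also added an offset of 50 units to every signal. With normexp the log2 fold change was 0.34 (limma, unadjusted p = 0.0778, adjusted p = 0.677). An offset of that size lowers the fold of signals as dim as these by construction. The parts of the starting signal, the model and the offset were not separated. Without untreated replicate 1, on the processed signal, the log2 fold change was 0.62 (limma, unadjusted p = 0.0549, adjusted p = 0.999). With arrays weighted by their estimated quality it was 1.18 and passed (limma, adjusted p = 0.0424). Those weights gave untreated replicate 1 a weight of 6.36 and the other arrays 0.519 to 0.896, so that fit rests mainly on 1 untreated sample. The Slc30a1 groups did not overlap, so settings that only left out, weighted or blocked arrays could not change the sign. Over the reported setting and its 24 alternatives Slc30a1 stayed above 0 in all 25.

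Mt3 and Slc30a1 ordered the arrays nearly in reverse, with a Pearson correlation of -0.855 and a Spearman correlation of -0.94 over 6 arrays. These are the members whose groups did not overlap, in opposite directions, so the group means enter that correlation.

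Slc30a5 encodes ZnT5, which loads zinc into the early secretory pathway together with ZnT6, the product of Slc30a6. Its brighter probe, A_55_P2580802, read 2.18, 2.42 and 1.74 in the untreated replicates and 2.23, 1.90 and 2.34 in the PNP replicates. The groups overlapped fully, and the log2 fold change was 0.04 ± 0.24 (SE, limma, adjusted p = 0.967). The dimmer probe, A_55_P2912519, gave -1.10, -1.16 and 0.05 in the untreated replicates and 0.14, -0.19 and -0.03 in the PNP replicates. On that probe the untreated replicates of slide 1 stood below the other 4 arrays, while untreated replicate 3 was among the PNP samples, 1.18 above the mean of the others of its group. Its log2 fold change was 0.71, with an interval from -0.04 to 1.47 (limma, unadjusted p = 0.0618, adjusted p = 0.561), and 0.09 within slide 2. The probes of Slc30a5 disagreed, with a correlation of -0.451 over the 6 arrays, so no single value stands for the gene. Slc30a6, the partner, had a log2 fold change of -0.06 ± 0.20 (SE, limma, adjusted p = 0.944).

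Slc30a7 encodes ZnT7, a further zinc transporter of the Golgi and secretory pathway. Its level was -0.87, -1.17 and -0.60 in the untreated replicates and -0.55, -0.29 and -1.08 in the PNP replicates. The groups overlapped, and the log2 fold change was 0.24, with an interval from -0.37 to 0.85 (limma, adjusted p = 0.793). Alpl, the tissue-nonspecific alkaline phosphatase that receives its zinc in that pathway, had 0.67 ± 0.21 (SE, limma, unadjusted p = 0.0118, adjusted p = 0.381). It was well above background on 1 of 3 untreated and 3 of 3 PNP arrays, so it was tested only because it was measured in the PNP group.

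Slc39a1 encodes ZIP1, a zinc importer of the plasma membrane found in most cells. Its level was 2.00, 1.96 and 2.86 in the untreated replicates and 2.67, 2.22 and 2.47 in the PNP replicates. Untreated replicate 3 was the highest of all 6 samples, 0.88 above the mean of the untreated replicates on slide 1, and the PNP samples lay in between. The log2 fold change was 0.18, with an interval from -0.47 to 0.83 (limma, adjusted p = 0.867).

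Slc39a10 encodes ZIP10, another importer of the plasma membrane. Its brighter probe, A_51_P223498, read 2.61, 1.98 and 2.31 in the untreated replicates and 1.95, 2.57 and 1.97 in the PNP replicates. The 3 arrays at position 1 read 2.61, 2.31 and 2.57 and the 3 at position 2 read 1.98, 1.95 and 1.97, whichever group they held. Its log2 fold change was -0.14 ± 0.26 and that of the dimmer probe, A_65_P05446, was 0.22 ± 0.24 (SE, limma, adjusted p = 0.89 and 0.792). Those probes had a correlation of 0.212 over the 6 arrays, and neither differed by as much as its standard error.

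Slc39a14 encodes ZIP14, an importer of zinc, manganese and iron that interleukin 6 induces in liver. Its level was -0.46, -0.72 and -0.04 in the untreated replicates and -0.50, 0.66 and 0.11 in the PNP replicates. The PNP samples of slide 3 were the highest, while PNP replicate 1 lay among the untreated samples. The log2 fold change was 0.49, with an interval from -0.24 to 1.23 (limma, unadjusted p = 0.163, adjusted p = 0.66). It was 0.91 within array position 1 and 0.52 within position 2, but -0.46 within slide 2.

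**Figure D3:**
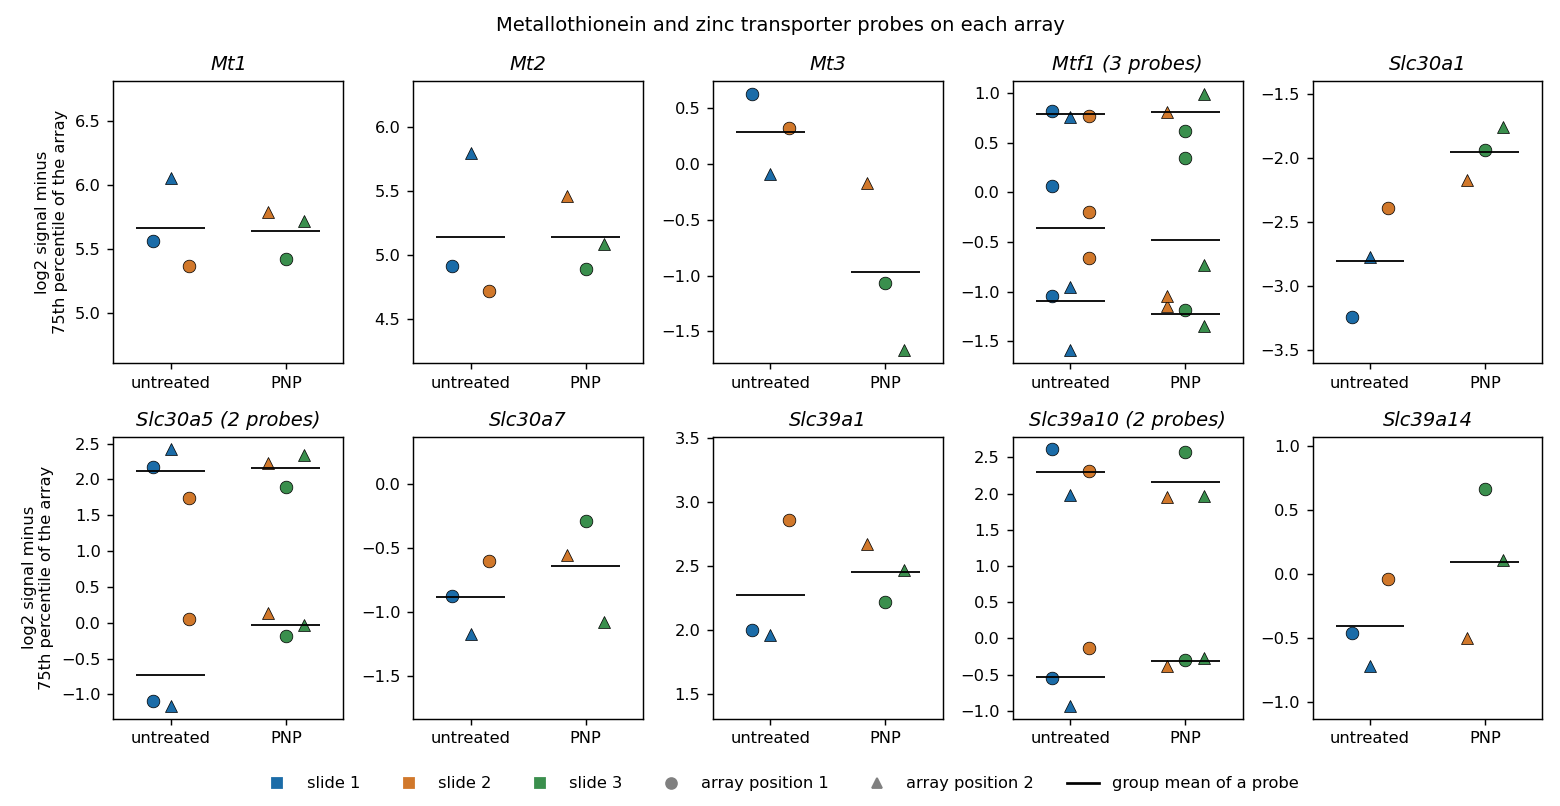
Level of every member probe on each array, as log2 signal minus the 75th percentile of the array, with slides in colour, array positions as circles (1) and triangles (2), and the group mean of each probe as a line. Each panel has its own axis of at least 2.2 log2 units. For Mt3 and Slc30a1 the groups do not overlap, and in the panels of Mt1 and Mt2 the triangles lie above the circles in both groups.

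The zinc transporter families were read by the brightest tested probe of each gene. Of the 10 Slc30 genes 7 were tested, and 0 passed the adjusted threshold (limma). At an unadjusted p under 0.05 there were 2, both higher, Slc30a1 and Slc30a2, and Slc30a2 entered the test through the PNP group alone. Of all tested probes, with and without a symbol, 6.58% were higher at that p, and the share among named genes was not computed. The median of the 7 was 0.12, beside -0.08 over the brightest probes of all named genes tested. Slc30a2, a zinc transporter of secretory vesicles, was well above background on 0 of 3 untreated and 3 of 3 PNP arrays. Its levels were -4.94, -4.53 and -4.98 in the untreated replicates and -3.98, -3.90 and -4.05 in the PNP replicates. The fit used these levels as measured (limma, unadjusted p = 0.00339, adjusted p = 0.322). A lower bound on the mean difference was 1.18-fold, higher with PNP. That bound compares the PNP mean with, on each untreated array, the higher of the probe's own signal and the dimmest signal that still counted as well above background there. On untreated replicate 3 that dimmest signal was 33.0 units, beside a 75th percentile of 469 units. After scaling it stood above all 3 PNP levels, so that array shows no rise by this measure. Slc30a3, Slc30a8 and Slc30a10 were well above background on none of the 6.

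Of the 14 Slc39 genes 10 were tested, and 0 had an adjusted or an unadjusted p under 0.05 (limma). Their median was -0.14, with 4 above 0 and 6 below. Slc39a5, an importer of gut and pancreas, had the value farthest from 0, 1.06 ± 0.48 (SE, limma, unadjusted p = 0.055, adjusted p = 0.548), and was named after its value was seen. Its levels were -3.39, -2.63 and -4.25 in the untreated replicates, 2 of which were well above background, and -3.25, -1.93 and -1.91 in the PNP replicates, so the groups overlapped. All 3 PNP replicates were well above background, so Slc39a5 entered the test through the PNP group alone.

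**Figure D4:**
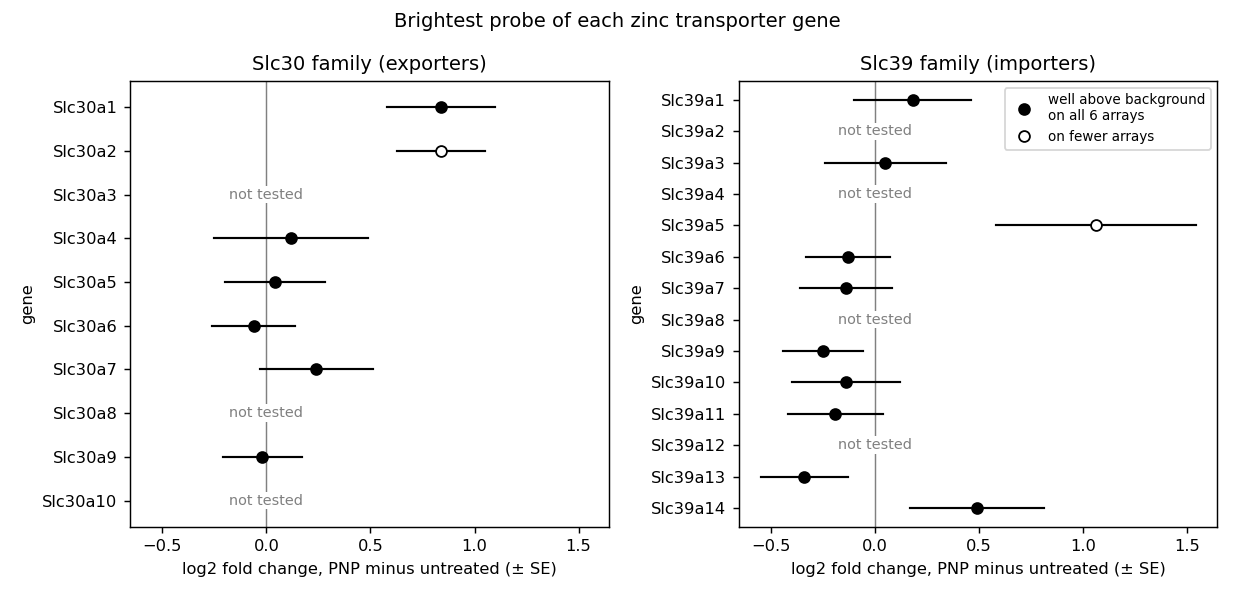
Log2 fold change, PNP minus untreated, of the brightest tested probe of each Slc30 gene (left) and Slc39 gene (right), with 1 standard error from limma (n = 3 per group). Filled circles were well above background on all 6 arrays and open circles on fewer. Slc30a1 and Slc30a2 stand at 0.84, and Slc39a5 at 1.06 has the widest error of the open circles. Slc30a2 and Slc39a5 entered the test through the PNP group alone.

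Genes of neighbouring pathways were counted by their brightest tested probe at an unadjusted p under 0.05, which 9.31% of all tested probes had in either direction. That share covers probes with and without a symbol, and the share among named genes was not computed. The median over the brightest probes of all named genes tested was -0.08. Of 9 genes of metal stress that MTF1 or its stimuli are known to affect, 9 were tested and 0 had an unadjusted p under 0.05 (limma), with a median of -0.05 and a range from -0.29 to 0.63. Copper handling gave 0 of 11, with a median of -0.12, and glucocorticoid-responsive genes, a route by which Mt1 and Mt2 are also induced, gave 0 of 10, with a median of 0.06. Among 8 genes of the STAT3 and interleukin 6 response, which induces Slc39a14 and metallothioneins, 1 had an unadjusted p under 0.05, and the median was -0.15. That gene was Junb, an AP-1 subunit, whose levels were 3.05, 2.88 and 2.75 in the untreated replicates and 2.12, 2.61 and 2.36 in the PNP replicates (limma, log2 fold change -0.53 ± 0.21, adjusted p = 0.511). Of the zinc-dependent secretory enzymes and zinc sensors 5 were tested, with Alpl the 1 at an unadjusted p under 0.05 and a median of -0.19. Transporters of manganese and iron that share substrates with these carriers gave 0 of 6, with a median of -0.02. That count uses only the brightest probe of each gene. The 4 tested probes of Slc11a2 in that list, named after its values were seen, ran from -0.42 (the brightest) to 1.42.

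Other genes resembled the members across the arrays. Symbols of the Gm, Rik, LOC and clone types were left out of the ranking below, but not of the counts of probes. Over 6 arrays the named genes most like Mt1 were Sdcbp2 (Pearson correlation 0.996), Tbl2 (0.995) and Cd74 (0.995), out of 1262 probes above 0.9. Those most like Mt3 were Fgfbp1 (0.990), Olfr616 (0.989) and Armh3 (0.986), out of 281 probes above 0.9. For Slc30a1 they were Lrrc57 (0.989), Sgk3 (0.989) and Vamp5 (0.985), out of 488. With 6 arrays and 28370 probes many reach such values, and the arrays share slides and positions.

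**Figure D5:**
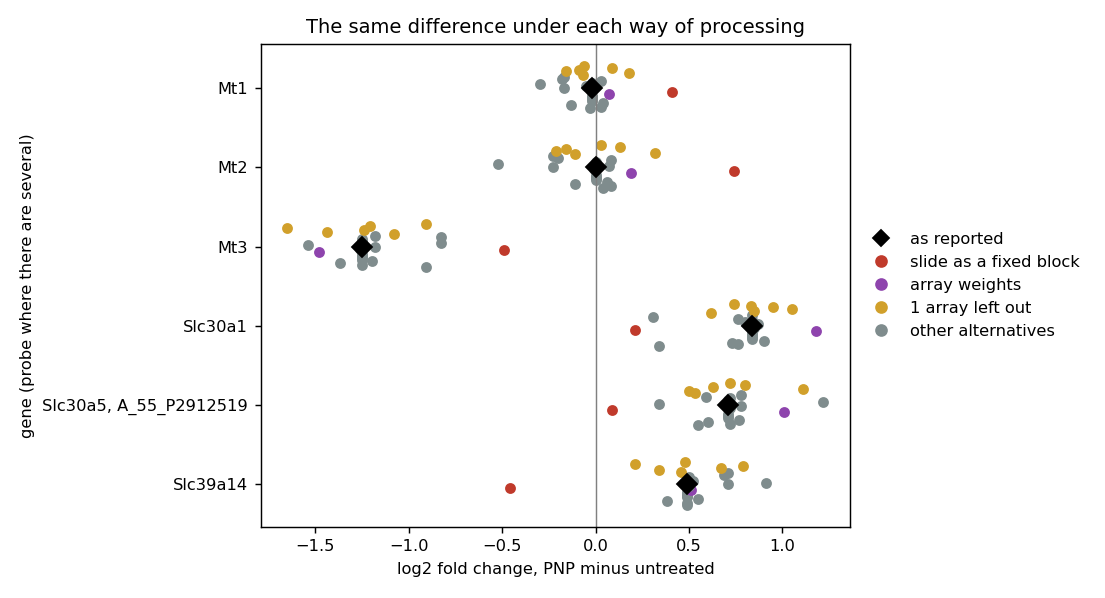
Log2 fold change of 6 member probes, PNP minus untreated, as reported (diamond) and under each alternative (circles): slide as a fixed block in red, array weights in purple, 1 array left out in yellow and the rest in grey. Mt3 stays below 0, from -1.65 to -0.49, Slc30a1 stays above 0, from 0.21 to 1.18, and Mt1 and Mt2 lie on both sides of 0. The groups of Mt3 and Slc30a1 did not overlap, so leaving out, weighting or blocking arrays could not change their sign.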

How the data were processed

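Total RNA of 6 TM4 samples was extracted with TRIzol and labelled with Cy3, per the labels. The deposited intensity values used in the reported setting are processed signals of Agilent Feature Extraction (11.5.1.1 per the file headers, 10.7 per the submitters' processing notes), background-subtracted and not normalized between arrays. Other deposited columns are per-spot flags (well above background, outlier, control) and the median spot and background signals, from which normexp started. The authors' deposited log2 table has nearly identical quantiles in every column, with a median of 4.75, and follows the processed signal with a correlation of 0.998 or more; its method is not given in the sources used here.

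Signals were put on the log2 scale, and outlier spots were dropped unless every spot of a probe was flagged. Replicate spots of a probe were averaged and the array's 75th percentile was subtracted. No member probe had an outlier spot. Tested were the 28370 of 56605 probes that stood well above background throughout the untreated group, the PNP group or both. The group difference was fitted per probe in R 4.3.3 with limma 3.58.1 (lmFit, eBayes, two-sided). The threshold was 0.05 after Benjamini-Hochberg adjustment over every tested probe. The fit was checked on simulated data with independent noise and no slide or position effect, so that check does not cover the layout of these arrays. Other packages were statmod 1.5.0 and, for reading files, data.table (1.17.8). Accessions were matched to RefSeq symbols of GRCm38.p6, for names only because the file headers give a different build. A symbol was found for 33767 probes and none for 22838. Slide and array position come from the file headers; all arrays were scanned on 1 day. The lists use the brightest tested probe of a gene.

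The members and lists were chosen with earlier results of these data known. Named are all 10 members, up to 4 genes of each list with an unadjusted p under 0.05, Slc30a6 and Mt4, and the 3 named genes most correlated with the brightest probes of Mt1, Mt3 and Slc30a1. Symbols of the Gm, Rik, LOC and clone types were left out of that last choice. The 24 alternatives changed the background correction, scaling, filter, unit, variance model, weights, blocks, values or samples.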

Additional observations from a re-analysis of the deposited data

How the results depend on the processing

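Of the 24 alternatives, 2 gave an adjusted call among the members (limma), 1 probe each: array weights (Slc30a1, 1.18), whose estimation stopped short of its tolerance, and array position 1 alone (Mt3, -1.54). Over the whole table those settings called 678 and 665 probes, against 0 in the reported setting, and 111 were called within position 2. Position 1 alone holds 1 PNP array and position 2 alone 1 untreated array, so these calls assume that the lone sample varies like the other group. Position as a block, chosen after seeing the data together with normexp or a robust trend, gave 30 and 22. At an unadjusted p under 0.05 there were 2 member probes as reported, 0 with slide as a fixed block, 1 within position 2, 4 with the robust trend and position block, and 1 to 3 when an array was left out (1 without untreated replicate 1). The median over members, 0.03, was 0.24 within position 2 and 0.02 to 0.12 with an array left out. Among the wider lists, 5 genes as reported became 3 with normexp, 10 with median centring, 3 with probes well above background on all 6 arrays, 15 with array weights, 1 with slide as a fixed block, 9 with position as a block, 9 and 1 within positions 1 and 2, 13 with normexp and position, 14 with the robust trend and position, and 3 to 9 with an array left out. Median centring moved the median of all probes from -0.043 to -0.155.

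Apart from Slc39a14, reversals were at probes that differed by less than 1 standard error as reported. Mt1 was 0.03 with quantile normalization and with the authors' deposited values, 0.04 with the other percentile, 0.07 with array weights, 0.41 with slide as a fixed block and -0.16 to 0.18 with an array left out. Mt2 was 0.04 with normexp, 0.08 with quantile normalization and the authors' values, 0.06 with the other percentile, 0.19 with array weights, 0.74 with the slide block, 0.07 within position 1 and -0.21 to 0.32 with an array left out. The brightest Mtf1 probe was -0.09 with median centring, -0.01 with array weights, -0.02 with position as a block, also with the robust trend, -0.18 within position 1 and -0.07 to 0.11 with an array left out. A_52_P236072 was 0 with position as a block, also with the robust trend, 0.34 within position 2 and -0.37 to 0.09 with an array left out, and A_52_P467266 was 0.24 with both of these blocks, 0.14 with normexp and position, 0.41 and 0.07 within positions 1 and 2 and -0.52 to 0.17 with an array left out. The brighter Slc30a5 probe was -0.07 with median centring, -0.01 with array weights, -0.10 with position as a block, also with the robust trend, -0.06 and -0.14 within positions 1 and 2 and -0.14 to 0.20 with an array left out. The brighter Slc39a10 probe was 0.04 with position as a block, also with the robust trend, 0.12 with normexp and position and within position 1, and -0.34 to 0.02 with an array left out. With slide as a fixed block Slc39a1 was -0.20, the dimmer Slc39a10 probe -0.25 and Slc39a14 -0.46, against 0.49 as reported, and within position 1 Slc39a1 was -0.21. The cause was not tested.

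Samples with the same replicate number did not deviate together (correlations of -0.4196, -0.5597 and -0.4315). Every such pair sat at opposite array positions, so this check cannot tell whether the numbers pair the samples. With a replicate block 0 member probes passed, 2 had an unadjusted p under 0.05, the median was 0.03 and the lists held 4 genes.

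A fixed slide block rests on untreated replicate 3 and PNP replicate 1, which differ in array position. With normexp, which started from median signals and also added an offset of 50 units, Slc30a1 had 0.34, against 0.84 as reported. The starting signal, the model and the offset were not separated.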
